A study of Mus musculus with 20 samples.

Results

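The transcription factor gene Atf4, 4 genes known as its stress targets (Asns, Chac1, Trib3 and Ddit3), the 3 enzymes of serine synthesis (Phgdh, Psat1 and Psph) and 2 mitochondrial enzymes that move the serine carbon onto folate (Shmt2 and Mthfd2) were followed in liver tumors and control livers of mice. The 10 genes were taken by symbol from the 50559 genes of the deposited count tables, by their names and not by a measured value, although earlier results of these data were known, and all 10 were found and tested. RNA sequencing covered 20 libraries in 4 groups of 5. All mice were wild-type C57BL/6J females, and plasmids were delivered to their hepatocytes by hydrodynamic gene transfer at the age of young adults, with the SB100X Sleeping Beauty transposase to integrate those that carried its repeats.

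Aldafermin+MYC tumors carried a plasmid for Aldafermin, an engineered analog of the human gut hormone FGF19, and one for the oncogene MYC. FGF19+MYC tumors carried human FGF19 and MYC, and sgTrp53+MYC tumors carried a CRISPR plasmid with a guide against Trp53, the gene of p53, and MYC. MYC was therefore shared by every tumor group, and no tumor without it, and none with MYC alone, was among them. Each tumor came from a different mouse. Collection followed signs of a tumor or a fixed endpoint, and the time since injection of single mice was not used here. The control livers are called non treated in the sample labels, whereas the methods describe mice transfected with a red fluorescent protein plasmid. For sgTrp53+MYC the treatment label reads none, and the group was taken from the titles.

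ATF4 is the main effector of the integrated stress response, in which kinases that sense amino acid shortage, misfolded protein, heme loss or viral RNA phosphorylate the translation factor eIF2 alpha. General translation then falls while the Atf4 messenger RNA is translated more, so that the level of the transcript does not measure the level of the protein. Known targets of ATF4 include amino acid transporters, tRNA synthetases, asparagine synthetase and the enzymes that make serine and pass its carbon to folate in mitochondria. The adult liver takes up serine from blood and breaks it down, and it uses methionine and folate cycles to a degree that few other tissues do.

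Between 18004977 and 44427184 reads were counted on genes in the libraries of Aldafermin+MYC, FGF19+MYC and liver, and 54042455 to 66354724 in those of sgTrp53+MYC, which stand in a deposited table of their own. The share of ambiguous reads, which overlap more than one gene, was 11.1% to 14.6% in sgTrp53+MYC libraries and 3.03% to 6.30% in the other libraries. Reads that were not aligned made up 5.34% to 6.82% in sgTrp53+MYC and 15.3% to 34.0% in the other libraries. A difference between the tables and a difference between sgTrp53+MYC tumors and the other groups cannot be told apart. Levels are CPM, read counts scaled to the library's depth and, by the TMM method, to its composition. Differences are log2 fold changes from edgeR's quasi-likelihood test, with an SE calculated from the test's F statistic. The p-values were adjusted over the 14333 genes that reached 1 CPM, by library totals before TMM, in 5 or more libraries. A call is an adjusted p under 0.05. As checks of the labels, Trp53 was at 18.7 to 79.8 CPM in sgTrp53+MYC tumors and at 90.7 to 176 CPM in the other tumors, but at 28.8 to 36.3 CPM in livers, which carry no guide, so that the level alone does not mark the guide. The sum of 8 hepatocyte markers was 211880 to 266444 CPM in livers against 5492 to 37065 CPM in all tumors. All 8 hepatocyte markers, among them Alb and Hnf4a, were lower in each tumor group than in livers. In bulk RNA, fewer cells of a type and less RNA per cell cannot be told apart.

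ATF4 binds the C/EBP-ATF response element, whose core was searched here as TGATGNAA on both strands (reverse complement TTNCATCA) in RefSeq promoter windows of GRCm38.p6, which run from 250 bases before to 50 after each transcription start. Windows of all 10 genes were found, and 3 genes, Asns, Chac1 and Trib3, held a match. Among all 27025 genes with a window, 4.51% held one, as did 7 of 20 other ATF4 targets and 0 of 17 other folate and glycine enzymes. The stretches of the 3 genes are shown because they share these letters and differed in level between groups in unlike ways, and Phgdh is shown as a gene with no match that rose most. Capitals mark the match, and each sequence is written along the gene's strand.
Asns, chr6:7693210-7693299, minus strand, bases -90 to -1: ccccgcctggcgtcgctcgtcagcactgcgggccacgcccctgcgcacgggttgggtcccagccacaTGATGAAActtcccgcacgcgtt
Chac1, chr2:119351008-119351097, plus strand, bases -234 to -145: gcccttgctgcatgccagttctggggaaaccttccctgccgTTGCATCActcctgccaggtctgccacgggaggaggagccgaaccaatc
Trib3, chr2:152344028-152344057, minus strand, bases 4 to 33: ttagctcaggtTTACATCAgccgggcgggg
Phgdh, chr3:98339970-98340059, minus strand, bases -90 to -1: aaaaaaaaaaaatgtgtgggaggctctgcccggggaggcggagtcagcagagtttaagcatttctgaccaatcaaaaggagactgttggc
The match lies at -23 to -16 in Asns, at -193 to -186 in Chac1 and at 15 to 22 in Trib3, counted from the start. It describes letters in these windows only. The windows of Atf4, Ddit3, Psat1, Psph, Shmt2 and Mthfd2 held no match either.

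Atf4 itself (GRCm39 chr15:80139372-80141745, plus strand) was moderately higher in tumors. Its levels were 161, 209.6, 224, 145 and 171 CPM in Aldafermin+MYC tumors and 262, 206, 190.4, 164 and 169 CPM in FGF19+MYC tumors. In sgTrp53+MYC tumors it was at 159.5, 142, 93.5, 123 and 171 CPM, and in livers at 111, 102, 108, 125 and 84.4 CPM. Both groups with a hormone plasmid lay wholly above the livers, and the sgTrp53+MYC tumors overlapped every other group. Relative to livers the log2 fold change was 0.78 ± 0.18 (SE, adjusted p = 0.000642, edgeR) in Aldafermin+MYC and 0.90 ± 0.18 (SE, adjusted p = 0.000161) in FGF19+MYC tumors. For sgTrp53+MYC it was 0.38 ± 0.18 (SE, adjusted p = 0.0630), which did not pass, and it passed at 0.49 (adjusted p = 0.0152) without sgTrp53+MYC replicate 3 and at 0.43 (adjusted p = 0.0498) without liver replicate 4. It also passed in 5 of 10 other settings, among them the offset for GC content and length at 0.62 (adjusted p = 0.00513) and no filter on low counts at 0.66 (adjusted p = 0.00536).

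Among the stress targets, Asns and the other 3 genes parted. Asns encodes asparagine synthetase, which makes asparagine from aspartate and glutamine (GRCm39 chr6:7671667-7728461, minus strand). It was nearly silent in livers, with 2, 13, 7, 40 and 6 reads in replicates 1 to 5, or 0.143, 0.476, 0.309, 2.73 and 0.239 CPM. Tumors had 343, 257, 201, 219 and 281 CPM with Aldafermin+MYC, 327, 261, 270.0, 301 and 183 CPM with FGF19+MYC, and 249.99, 257, 189, 330.1 and 288 CPM with sgTrp53+MYC. The 3 tumor groups covered the same range, far above every liver. The log2 fold changes from liver were 8.47 ± 0.60 (SE), 8.52 ± 0.60 (SE) and 8.49 ± 0.60 (SE) in that order, with adjusted p of 2.8e-10 to 3.14e-10 (edgeR). Without liver replicate 4, the highest liver, they were 9.71, 9.75 and 9.72. That liver also had the highest Afp, a fetal liver and tumor marker, at 6.34 CPM, whereas its Gpc3, another marker of liver tumors, was the lowest of the livers at 0.682 CPM. The part of any tumor tissue in its values was not tested.

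Trib3, a pseudokinase that ATF4 induces and that in turn restrains it (GRCm39 chr2:152179337-152191958, minus strand), was at 17.2, 33.3, 8.78, 19.4 and 27.7 CPM in livers. Aldafermin+MYC tumors had 18.0, 20.2, 18.7, 14.5 and 19.6 CPM and FGF19+MYC tumors 33.5, 18.9, 24.8, 17.5 and 13.7 CPM. In sgTrp53+MYC tumors it was at 3.34, 7.95, 2.44, 12.2 and 4.12 CPM. Every sgTrp53+MYC tumor was thus below every other tumor, and the tumors with a hormone plasmid overlapped the livers, with FGF19+MYC replicate 1 just above the highest of them. Trib3 was lower in sgTrp53+MYC tumors than in livers by a log2 fold change of -1.82 ± 0.40 (SE, adjusted p = 0.000427, edgeR), and the changes in Aldafermin+MYC and FGF19+MYC tumors, -0.22 and 0.02, did not pass (adjusted p = 0.614 and 0.957).

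Chac1 encodes an enzyme that degrades glutathione (GRCm39 chr2:119180757-119184866, plus strand), and it varied most among the 10 genes in Aldafermin+MYC and sgTrp53+MYC tumors. It was at 2.79, 7.58, 9.67, 10.3 and 1.12 CPM in Aldafermin+MYC, 5.85, 5.45, 5.02, 2.64 and 5.33 CPM in FGF19+MYC, and 1.69, 0.936, 0.334, 1.59 and 5.49 CPM in sgTrp53+MYC tumors. The livers had 5.66, 5.23, 3.75, 14.1 and 10.8 CPM. All groups overlapped, although 4 of the 5 sgTrp53+MYC tumors were below every liver. The SD of its log2 CPM was 1.36 in Aldafermin+MYC and 1.40 in sgTrp53+MYC tumors, against a median over all tested genes of 0.401 and 0.447. In FGF19+MYC tumors its SD was 0.463, below those of Psat1, Trib3 and Ddit3, and in livers 0.784, below those of Asns, Phgdh and Psat1. Relative to livers Chac1 was lower in sgTrp53+MYC tumors, with a log2 fold change of -1.98 ± 0.63 (SE, adjusted p = 0.00920, edgeR), and at -2.79 (adjusted p = 0.000587) without sgTrp53+MYC replicate 5. The values for Aldafermin+MYC and FGF19+MYC, -0.33 and -0.70, did not pass (adjusted p = 0.640 and 0.317).

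Ddit3, the gene of the stress factor CHOP (GRCm39 chr10:127124268-127132163, plus strand), followed Trib3 and Chac1 at low counts. Livers had 7.09, 11.4, 4.94, 8.66 and 6.76 CPM and sgTrp53+MYC tumors 2.73, 4.85, 3.03, 2.88 and 2.13 CPM. Aldafermin+MYC tumors had 4.24, 5.85, 10.3, 5.11 and 3.84 CPM and FGF19+MYC tumors 6.02, 7.42, 4.44, 3.40 and 7.23 CPM. The sgTrp53+MYC tumors were all below the livers, and the other tumors overlapped both. The log2 fold change from liver was -1.31 ± 0.31 (SE, adjusted p = 0.00102, edgeR) in sgTrp53+MYC, and -0.41 and -0.45 in Aldafermin+MYC and FGF19+MYC tumors (adjusted p = 0.250 and 0.205). The call for Aldafermin+MYC was made at -0.71 (adjusted p = 0.0417) when Aldafermin+MYC replicate 3 was left out. In the annotation 100% of the Ddit3 transcript overlaps exons of genes on the opposite strand, among them Mars1. Such overlap was 19.1% for Psph, with Cct6a, 5.26% for Asns and 1.35% for Shmt2. The strand setting of the counting is not given in the sources used here. The part of the higher share of ambiguous reads in sgTrp53+MYC libraries in the differences of these genes was not tested. The calls of Chac1 and Ddit3 in sgTrp53+MYC tumors were lost when libraries were scaled by their totals alone, at -1.09 (adjusted p = 0.118) and -0.42 (adjusted p = 0.237), whereas that of Trib3 held at -0.93 (adjusted p = 0.0288). Under the same scaling the values of all 3 genes in Aldafermin+MYC tumors and of Chac1 and Ddit3 in FGF19+MYC tumors turned positive without a call, and Trib3 was called higher in FGF19+MYC tumors at 0.86 (adjusted p = 0.0414). The median of all genes moved by 0.844 to 0.882 with this scaling.

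**Figure D1:**
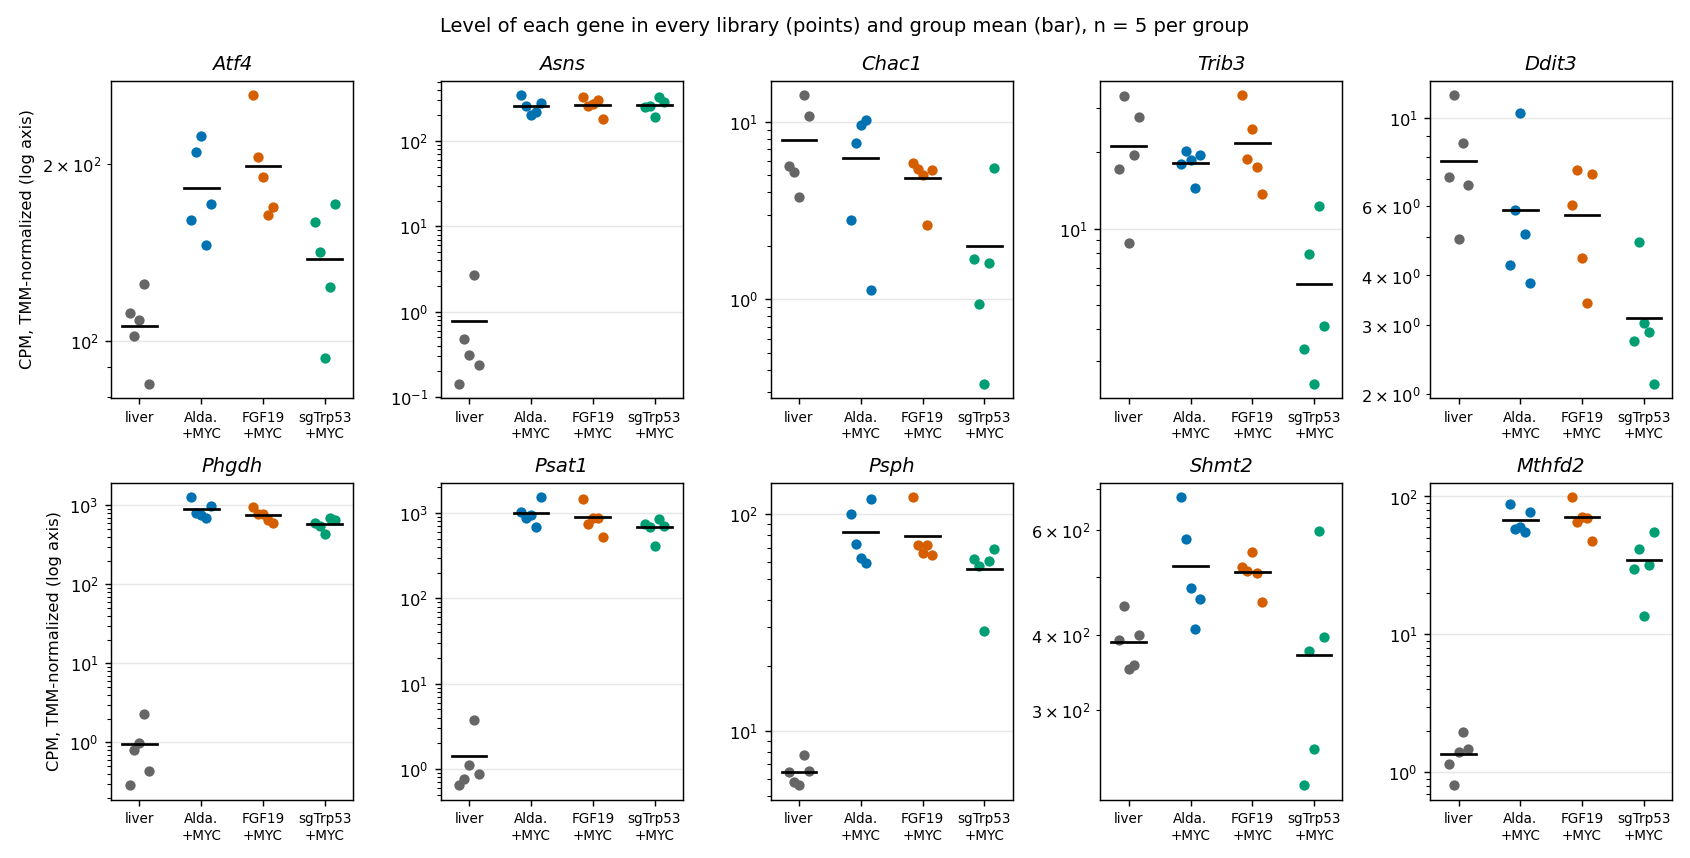
Level of each of the 10 genes in every library, in CPM on a log axis that differs between panels, by group (points: 5 libraries, bar: group mean). Asns, Phgdh, Psat1, Psph and Mthfd2 lie far above the livers in all 15 tumors, whereas Trib3, Chac1 and Ddit3 lie lowest in sgTrp53+MYC tumors.

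The 3 enzymes of serine synthesis rose in all tumor groups, and the first pair of steps rose from almost nothing. Phgdh encodes phosphoglycerate dehydrogenase, which draws carbon from glycolysis into the pathway (GRCm39 chr3:98220484-98255047, minus strand). The livers had 4, 22, 22, 34 and 11 reads, or 0.286, 0.805, 0.970, 2.32 and 0.438 CPM. Phgdh was at 1269, 804, 746, 686 and 980.4 CPM in Aldafermin+MYC tumors, at 944, 784, 776, 660.0 and 595 CPM in FGF19+MYC tumors and at 592, 550.0, 439, 687 and 643 CPM in sgTrp53+MYC tumors. The lowest tumor was thus at 439 CPM and the highest liver at 2.32 CPM. The log2 fold changes were 9.89 ± 0.48 (SE), 9.63 ± 0.47 (SE) and 9.26 ± 0.47 (SE), with adjusted p of 1.73e-12 to 2.79e-12 (edgeR).

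Psat1 encodes the aminotransferase of the next step (GRCm39 chr19:15882039-15924701, minus strand). It was at 0.645, 0.769, 1.10, 3.75 and 0.875 CPM in livers, from 9, 21, 25, 55 and 22 reads. Tumors had 1012, 866, 935, 691 and 1529.8 CPM with Aldafermin+MYC, 1446, 732, 874, 878 and 527 CPM with FGF19+MYC, and 743, 679, 409, 853 and 708 CPM with sgTrp53+MYC. The tumor groups overlapped each other and none overlapped the livers. Its log2 fold changes were 9.49 ± 0.55 (SE), 9.31 ± 0.54 (SE) and 8.92 ± 0.54 (SE), with adjusted p of 1.9e-11 to 3.04e-11 (edgeR). Without liver replicate 4 they were 10.19, 10.01 and 9.62.

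Psph, the phosphatase that releases serine (GRCm39 chr5:129841925-129864513, minus strand), was already measurable in livers, at 6.45, 5.78, 5.60, 7.77 and 6.52 CPM. Aldafermin+MYC tumors had 99.9, 72.7, 63.0, 59.7 and 118 CPM, FGF19+MYC tumors 119.9, 72.4, 66.1, 72.02 and 64.7 CPM, and sgTrp53+MYC tumors 62.4, 57.7, 28.8, 60.9 and 69.0 CPM. It was 12.9-fold, 12.3-fold and 8.69-fold higher than in livers, or 3.69 ± 0.26 (SE), 3.62 ± 0.26 (SE) and 3.12 ± 0.25 (SE) on the log2 scale (adjusted p of 3.09e-10, 3.7e-10 and 2.12e-09, edgeR). The rise of Psph was thus smaller than those of Phgdh and Psat1 by more than their intervals: the highest upper bound for Psph was 4.23 and the lowest lower bound for the others was 7.80.

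The mitochondrial pair differed as well. Shmt2, which splits serine into glycine and a folate-bound carbon (GRCm39 chr10:127352266-127358323, minus strand), was high in livers already, at 392, 447, 351, 356 and 399.9 CPM. It was at 679, 579, 478, 409.9 and 459 CPM in Aldafermin+MYC, 519.5, 512, 551, 508 and 454 CPM in FGF19+MYC, and 225, 377, 258, 596 and 397 CPM in sgTrp53+MYC tumors. The FGF19+MYC tumors all lay above the livers, the Aldafermin+MYC tumors overlapped them, and the sgTrp53+MYC tumors reached from below to above them. No call was made: the log2 fold changes were 0.42 ± 0.21 (SE, adjusted p = 0.0796, edgeR), 0.39 ± 0.21 (SE, adjusted p = 0.106) and -0.07 ± 0.21 (SE, adjusted p = 0.773). Without Aldafermin+MYC replicate 5 the first was 0.53 (adjusted p = 0.0426). Shmt2 was called higher in 5 of 10 other settings for Aldafermin+MYC, 3 of 10 for FGF19+MYC and 1 of 10 for sgTrp53+MYC tumors. In fits of the compared groups only, it was at 0.45 (adjusted p = 0.0308, edgeR) in Aldafermin+MYC and 0.34 (adjusted p = 0.0235) in FGF19+MYC tumors. With library totals alone all 3 were called higher, at 1.27, 1.23 and 0.82, which was 0.42, 0.39 and -0.06 relative to the shift in the median of all genes.

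Mthfd2, which oxidizes the folate-bound carbon in mitochondria and is known for low levels in adult tissues (GRCm39 chr6:83282673-83302890, minus strand), was at 1.15, 0.805, 1.41, 1.98 and 1.47 CPM in livers. It reached 88.4, 57.7, 60.5, 55.1 and 76.5 CPM in Aldafermin+MYC, 98.9, 65.3, 71.5, 70.1 and 47.4 CPM in FGF19+MYC, and 29.997, 41.8, 13.5, 32.1 and 55.1 CPM in sgTrp53+MYC tumors. No tumor overlapped a liver, and the sgTrp53+MYC tumors tended to the low end of the tumors. The log2 fold changes were 5.65 ± 0.36 (SE), 5.71 ± 0.36 (SE) and 4.68 ± 0.34 (SE), or 50.1-fold, 52.3-fold and 25.5-fold, with adjusted p of 5.31e-11 to 4.69e-10 (edgeR).

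Against livers, 6 of the 10 genes were called in Aldafermin+MYC tumors, all higher, where 70.3% of all tested genes were called and 38.4% were higher. In FGF19+MYC tumors the same 6, Atf4, Asns, Phgdh, Psat1, Psph and Mthfd2, were called higher, where 69.7% of all genes were called and 36.9% were higher. In sgTrp53+MYC tumors 5 were called higher and 3 lower, where 69.9% were called, 36.9% higher and 33% lower. These comparisons share the livers, and the number called in either direction was near the background, so that the counts are no result about the 10 genes. The groups did not overlap for 6, 7 and 6 of the 10 genes in that order, as for 58.8%, 62.5% and 56.2% of all genes. In TMM-scaled CPM, Asns reached 1 CPM in 1 of 5 livers, Phgdh in 1, Psat1 in 2 and Mthfd2 in 4, and all 4 did so in all 15 tumors. The filter on low values took CPM by library totals, before TMM, which are lower in livers. Those 4 genes passed it through the tumors.

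**Figure D2:**
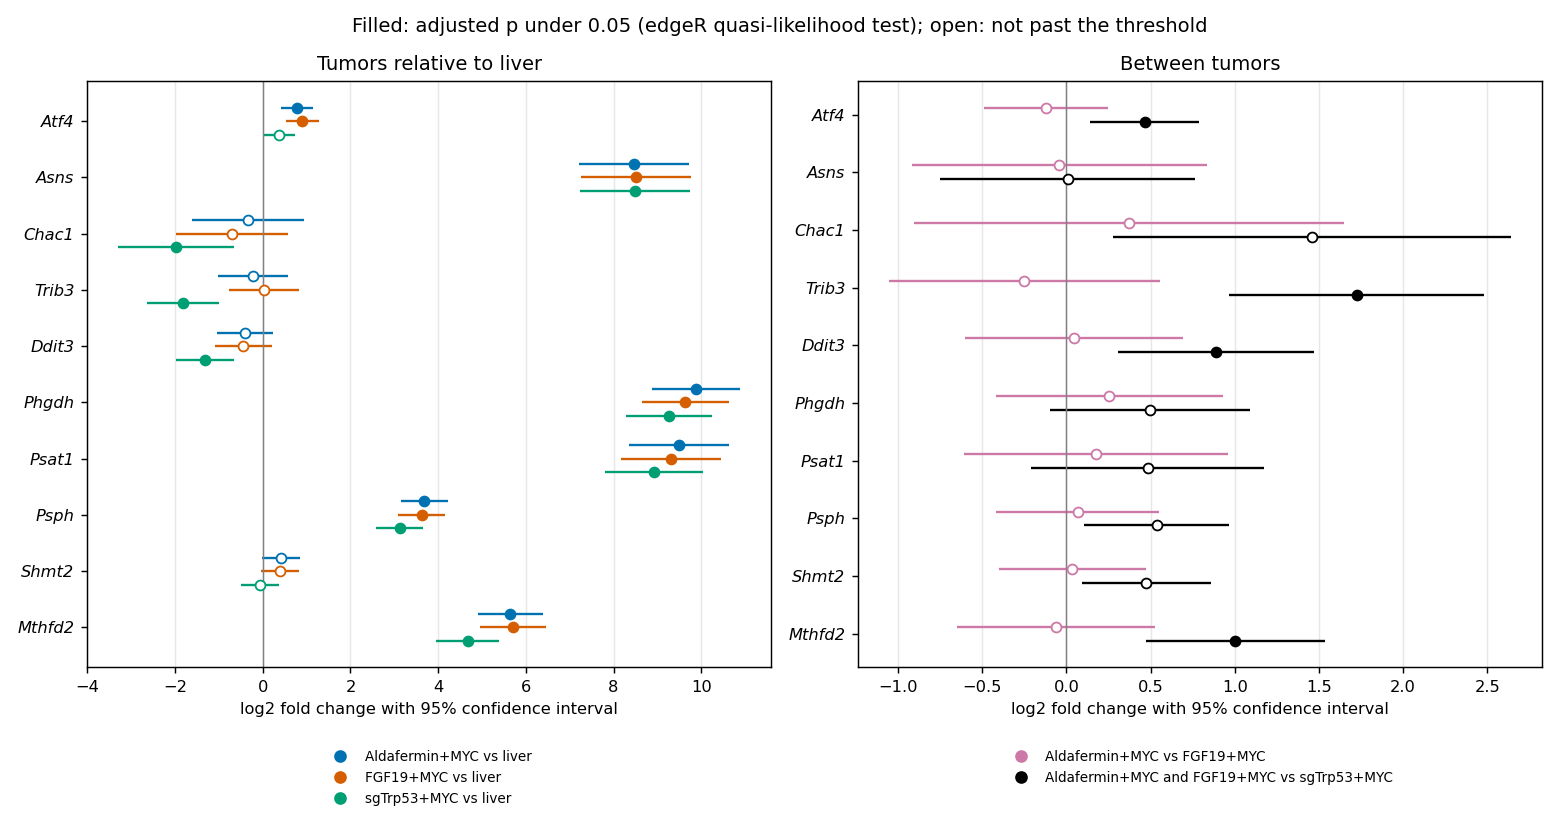
Log2 fold changes of the 10 genes with 95% confidence intervals, tumors relative to livers on the left and comparisons between tumors on the right (filled points: called, open points: not called). On the left Asns, Phgdh and Psat1 lie at 8.47 to 9.89, and on the right Trib3, Mthfd2, Ddit3 and Atf4 are filled for the tumors with a hormone plasmid against sgTrp53+MYC.

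Per kilobase of transcript, the order of the genes turned over between liver and tumor. In livers Shmt2 was highest at 169 ± 16.8 CPM per kb (SD, n = 5), followed by Atf4 at 60.9 ± 8.49, Trib3 at 10.2 ± 4.55, Ddit3 at 7.94 ± 2.48 and Chac1 at 4.76 ± 2.63. Neighbours from Trib3 to Chac1 lay within their spreads. Phgdh at 0.509 ± 0.426, Psat1 at 0.545 ± 0.500 and Asns at 0.159 ± 0.224 CPM per kb were at the bottom, and Psph at 2.64 ± 0.351 and Mthfd2 at 0.648 ± 0.206 lay between. In Aldafermin+MYC tumors Phgdh at 474 ± 124 and Psat1 at 384 ± 120 CPM per kb were the highest and did not differ beyond their spread, and Shmt2 followed at 227 ± 46.9, Atf4 at 105 ± 19.1 and Asns at 53.1 ± 11.4. Psph at 34.0 ± 10.4 and Mthfd2 at 32.2 ± 6.81 CPM per kb were alike within their spread, and Trib3, Ddit3 and Chac1 came last at 8.71, 5.99 and 3.78 CPM per kb.

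**Figure D3:**
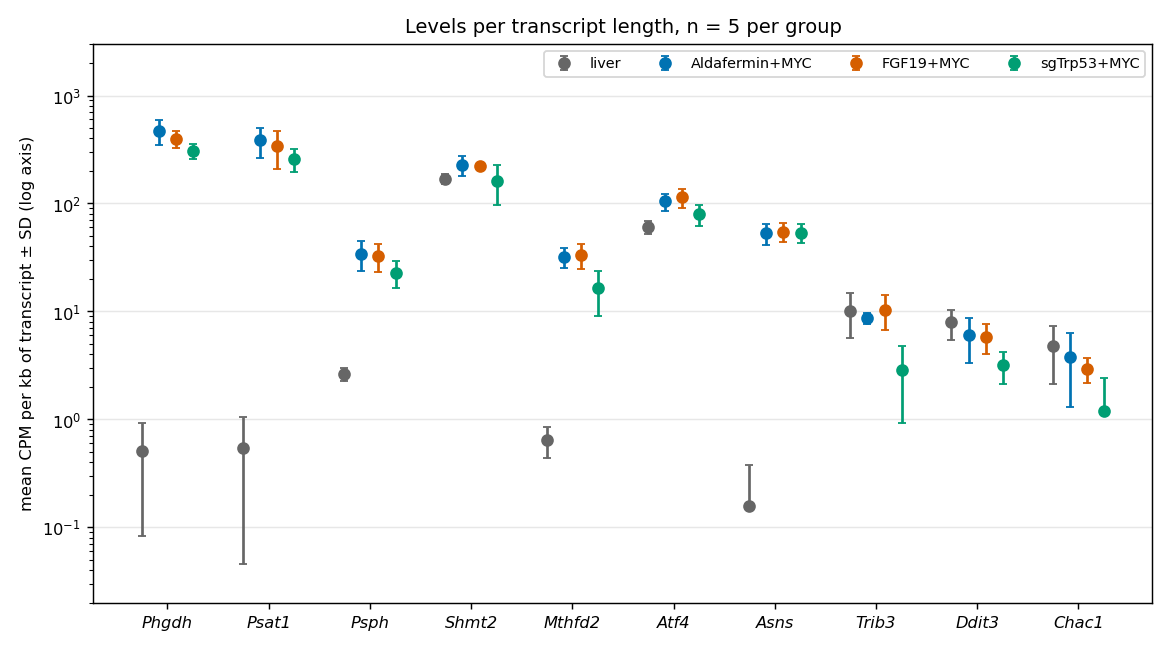
Mean level of each gene per kilobase of its transcript in CPM per kb, with SD, on a log axis (n = 5 per group). Where the SD exceeds the mean (Asns in livers, Chac1 in sgTrp53+MYC) the lower bar is left out. Phgdh and Psat1 move from 0.509 and 0.545 CPM per kb in livers to 259 to 474 CPM per kb in tumors, and Shmt2 stays between 161 and 227 CPM per kb in all groups.

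Aldafermin+MYC set against FGF19+MYC tumors asks whether the analog and the hormone, both given as plasmids with MYC, left different transcript levels. None of the 10 genes was called, and of all tested genes 0% were, with 1048 at an unadjusted p under 0.05 (edgeR's quasi-likelihood test). DESeq2 called 96 genes and the edgeR likelihood ratio test 59, and neither called any of the 10. The closest bounds were those of Atf4, with a log2 difference of -0.12 (95% interval -0.49 to 0.24), and of Shmt2 at 0.03 (-0.40 to 0.47). For Phgdh the difference was 0.26 (-0.42 to 0.93), for Psat1 0.18 (-0.61 to 0.96) and for Mthfd2 -0.06 (-0.65 to 0.53). For Trib3 it was -0.25 (-1.05 to 0.55). Differences of Asns, -0.04 (-0.92 to 0.83), and Chac1, 0.37 (-0.91 to 1.65), were bounded least well. These intervals do not show that the proteins act alike, since a difference of up to 1.65 on the log2 scale could not be told from none for Chac1.

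Pooled Aldafermin+MYC and FGF19+MYC tumors were then compared with sgTrp53+MYC tumors, a tumor with MYC but without the hormone plasmids. Of the 10 genes 4 were called, all higher in the tumors with a hormone plasmid, where 23.7% of all genes were called and 11.6% were higher. Trib3 differed most, with a log2 fold change of 1.72 ± 0.36 (SE, adjusted p = 0.00224, edgeR) and no overlap, as for 5.7% of all genes. Mthfd2 followed at 1.00 ± 0.25 (SE, adjusted p = 0.00807), with 1 sgTrp53+MYC tumor inside the range of the others. Ddit3 at 0.89 ± 0.28 (SE, adjusted p = 0.0262) and Atf4 at 0.46 ± 0.16 (SE, adjusted p = 0.0359) passed more narrowly. All 10 log2 fold changes were above 0, that of Asns only by 0.01 and below 0 with library totals alone, with a median of 0.52 against -0.02 over all genes.

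Trib3 and Mthfd2 were also called against each hormone group alone. For Trib3 the log2 fold change was 1.60 (adjusted p = 0.00883, edgeR) with Aldafermin+MYC and 1.85 (adjusted p = 0.00399) with FGF19+MYC, where 17.7% (10.2% higher, 7.53% lower) and 15.8% (7.97% higher, 7.78% lower) of all genes were called. For Mthfd2 it was 0.97 (adjusted p = 0.0235) and 1.03 (adjusted p = 0.0186). These comparisons share the sgTrp53+MYC tumors. Ddit3 was called as the remaining gene of 3 with Aldafermin+MYC alone, at 0.91 (adjusted p = 0.0490), and Atf4 with FGF19+MYC alone, at 0.53 (adjusted p = 0.0485). In the pooled comparison, Trib3 and Mthfd2 were called with each of the 15 tumors left out in turn.

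The calls of Ddit3 and Atf4 lay near the threshold and were lost when any of several libraries was left out. That of Ddit3 was lost without sgTrp53+MYC replicate 1, 3, 4 or 5 (log2 fold change 0.78 to 0.87, adjusted p = 0.0504 to 0.0785, edgeR). That of Atf4 was lost without Aldafermin+MYC replicate 2, 3 or 5, FGF19+MYC replicate 1 or 2, or sgTrp53+MYC replicate 2, 3 or 4, where the lowest value was 0.35 (adjusted p = 0.113, without sgTrp53+MYC replicate 3). Both were lost with an offset for GC content and length, at 0.51 (adjusted p = 0.145) for Ddit3 and 0.30 (adjusted p = 0.187) for Atf4. Of 12 other settings in all, Ddit3 was called in 9 and Atf4 in 6.

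The other 6 genes did not pass. Chac1 had a log2 fold change of 1.46 ± 0.57 (SE, adjusted p = 0.0674, edgeR), which passed without sgTrp53+MYC replicate 5, its highest tumor of that group, at 2.28 (adjusted p = 0.0102) and without Aldafermin+MYC replicate 5 at 1.55 (adjusted p = 0.0339). Psph at 0.54 (adjusted p = 0.0646) passed without Aldafermin+MYC replicate 4 at 0.59 (adjusted p = 0.0465), and Shmt2 at 0.48 (adjusted p = 0.0681) without sgTrp53+MYC replicate 4 at 0.71 (adjusted p = 0.00524). Chac1, Psph and Shmt2 each also passed in 2 of 12 other settings. These were DESeq2 (adjusted p = 0.024) and the likelihood ratio test (adjusted p = 0.0381) for Chac1. For Shmt2 they were DESeq2 (adjusted p = 0.0436) and upper quartile size factors (adjusted p = 0.0411, edgeR). For Psph they were library totals alone (adjusted p = 0.0422, edgeR) and a replicate block (adjusted p = 0.0331). Phgdh and Psat1 were at 0.50 (adjusted p = 0.220) and 0.48 (adjusted p = 0.314). Asns was at 0.01, with a 95% interval of -0.75 to 0.77 (adjusted p = 0.992). Of the 3 genes with the searched letters in their windows, Trib3 had the largest value of the 10 genes, at 1.72. Chac1 was at 1.46 without a call, and Asns had the smallest value, at 0.01. The part of these letters in the differences was not tested.

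Cell type markers also differed between these tumors, where 11.6% of all genes were higher and 12.1% lower. Of 8 hepatocyte markers 3 were higher and 1 lower in the tumors with a hormone plasmid, with a summed level of 12771 to 37065 CPM against 5492 to 14403 CPM in sgTrp53+MYC tumors. Of 6 macrophage markers 5 were higher in the tumors with a hormone plasmid, with a summed level of 151 to 480 CPM against 83.5 to 165 CPM in sgTrp53+MYC and 346 to 540.5 CPM in livers. Of 5 biliary markers 4 were lower, with sums of 1.81 to 87.4 CPM against 3.44 to 777 CPM, the highest in sgTrp53+MYC replicate 2. None of 6 endothelial, 6 stellate and fibroblast and 2 tested lymphoid markers was called. No marker of the hepatocyte, macrophage and biliary lists was at 0 in every library of a group. Their part in the differences of the 10 genes was not tested.

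Some libraries were low or high for most of the 10 genes. FGF19+MYC replicate 1 was the highest of its group for 8 of the 10 genes, and FGF19+MYC replicate 5 the lowest for 7. In Aldafermin+MYC replicate 4 was the lowest for 7, in sgTrp53+MYC replicate 3 for 8, and in livers replicate 4 was the highest for 7. The sum of hepatocyte markers was lowest of its group in FGF19+MYC replicate 1, at 13481 CPM. It was highest of its group in FGF19+MYC replicate 5 (37065 CPM), Aldafermin+MYC replicate 4 (28747 CPM) and liver replicate 4 (266444 CPM). In sgTrp53+MYC replicate 3 it lay inside the range of its group, at 8288 CPM. Its part in these extremes was not tested. Without sgTrp53+MYC replicate 3, only 2 of the 10 genes, Trib3 and Mthfd2, were called against sgTrp53+MYC.

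The other known ATF4 targets, a list of 24 genes of which 23 were tested, moved in both directions. Relative to livers 12 were higher and 9 lower in Aldafermin+MYC, 13 and 8 in FGF19+MYC, and 10 and 10 in sgTrp53+MYC tumors, with median log2 fold changes of 0.92, 1.07 and -0.05 against 0.13, 0.06 and 0.07 over all genes. Of all genes 38.4% were higher and 31.9% lower in Aldafermin+MYC, 36.9% and 32.9% in FGF19+MYC, and 36.9% and 33% in sgTrp53+MYC tumors. The 3 genes with the largest mean change all rose. Slc7a1, a transporter of arginine and lysine, rose from 1.65 ± 0.61 to 91.3 ± 21.7, 132 ± 29.5 and 124 ± 25.999 CPM (SD, n = 5), Aldh18a1, the first enzyme of proline synthesis, from 2.26 ± 1.02 to 148 ± 30.4, 156 ± 21.8 and 166 ± 37.2 CPM, and Pycr1, the last, from 0.597 ± 0.325 to 12.7 ± 4.32, 12.3 ± 6.82 and 11.8 ± 3.60 CPM. Slc6a9, a glycine transporter, fell from 86.3 ± 15.2 to 16.8 ± 4.04, 16.6 ± 2.72 and 7.61 ± 3.87 CPM.

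Against sgTrp53+MYC 7 of the 23 were higher in the pooled tumors and 1 was lower, where 11.6% of all genes were higher and 12.1% lower. Sesn2, an amino acid sensor that p53 also induces, was 4.31-fold higher (adjusted p = 0.000345, edgeR), and Gdf15, a circulating stress hormone and another known p53 target, 3.27-fold (adjusted p = 0.00114). Slc6a9 was 2.19-fold higher (adjusted p = 0.00252). The gene that was lower, Vldlr, a lipoprotein receptor named here after its value was seen, had a log2 fold change of -2.07 (adjusted p = 0.0208) and group means of 0.492 to 2.83 CPM in tumors against 16.6 CPM in livers.

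Of 12 genes for eIF2 alpha, its kinases, an activator and a phosphatase subunit, and its exchange factor, 8 were higher and 3 lower in Aldafermin+MYC tumors than in livers, and 7 were higher and 2 lower in each of the other tumor groups, where 70.3%, 69.7% and 69.9% of all genes were called and 38.4%, 36.9% and 36.9% were higher. The largest changes were in the translation factor and its exchange factor. Eif2b3, a subunit of the exchange factor that recharges eIF2, had log2 fold changes of 2.41, 2.44 and 2.52, Eif2s1, the alpha subunit itself, 2.01, 1.94 and 2.38, and Eif2b1 1.70, 1.74 and 1.81. Eif2ak2, the kinase that senses viral RNA, fell in Aldafermin+MYC and FGF19+MYC tumors at -0.82 (adjusted p = 0.00687, edgeR) and -1.08 (adjusted p = 0.000910) and was at -0.27 (adjusted p = 0.339) in sgTrp53+MYC tumors. With library totals alone the values were 0.03 and -0.23 and neither was called, and relative to the shift in the median of all genes they were -0.82 and -1.08. Against sgTrp53+MYC tumors 1 of the 12 was higher and 1 lower in the pooled tumors, where 11.6% of all genes were higher and 12.1% lower. Eif2b5 was higher at 0.40 (adjusted p = 0.00567, edgeR). It was at 0.29 (adjusted p = 0.122) with no filter on low counts and 0.32 (adjusted p = 0.0641) with the offset for GC content and length. Eif2ak2 was lower at -0.68 (adjusted p = 0.0257). That call was lost without sgTrp53+MYC replicate 3 at -0.51 (adjusted p = 0.107) or replicate 5 at -0.62 (adjusted p = 0.0689). The Eif2ak2 call was also lost with the offset for GC content and length at -0.49 (adjusted p = 0.0752). With Aldafermin+MYC alone it was lost at -0.55 (adjusted p = 0.135). Eif2b2, another exchange factor subunit, was at 0.21 (adjusted p = 0.108) in the pooled comparison.

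Among 21 other folate and glycine enzymes, 9 were higher and 5 lower in Aldafermin+MYC tumors than in livers, 8 and 6 in FGF19+MYC, and 11 and 6 in sgTrp53+MYC tumors. The number called, 14, 14 and 17 of 21, was near the 70.3%, 69.7% and 69.9% of all genes and is no result about these enzymes. Mthfd1l, which completes the mitochondrial route after Mthfd2 by releasing formate, rose from 3.09 ± 2.15 to 140.1 ± 20.7, 154 ± 22.3 and 116 ± 24.4 CPM (SD, n = 5), and Slc19a1, the folate carrier of the cell surface, from 14.0 ± 1.15 to 149 ± 22.8, 173 ± 16.9 and 141 ± 31.7 CPM. Aldh1l1, the abundant hepatic enzyme that burns folate-bound carbon in the cytosol, fell from 2137 ± 476 to 53.0 ± 49.9, 71.0 ± 82.9 and 72.2 ± 35.1 CPM. Its log2 fold change in Aldafermin+MYC tumors was -5.34, or -6.10 without Aldafermin+MYC replicate 4, and in FGF19+MYC tumors -4.91, or -5.95 without FGF19+MYC replicate 5. Slc25a32, the carrier that brings folate into mitochondria, fell from 60.0 ± 11.9 to 24.4 ± 5.67, 29.3 ± 3.10 and 40.5 ± 7.70 CPM, all called. With library totals alone its value in sgTrp53+MYC tumors was 0.31, or -0.57 relative to the shift in the median of all genes, and its call in FGF19+MYC tumors was lost at -0.19 (adjusted p = 0.318), or -1.04 relative to the shift.

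Mthfd2l, the paralog of Mthfd2, ran against it between tumors. It was at 6.87 ± 0.949 CPM in Aldafermin+MYC, 7.10 ± 0.568 CPM in FGF19+MYC and 12.8 ± 1.85 CPM in sgTrp53+MYC tumors (SD, n = 5), against 1.23 ± 0.238 CPM in livers. The pooled tumors were lower than sgTrp53+MYC by -0.88 on the log2 scale (adjusted p = 0.000251, edgeR) with no overlap, whereas Mthfd2 was higher by 1.00. In this comparison 3 of the 21 enzymes were higher and 5 lower, where 11.6% of all genes were higher and 12.1% lower. Slc25a32 was lower at -0.60 (adjusted p = 0.00657, edgeR), and its call was lost with the offset for GC content and length at -0.34 (adjusted p = 0.118).

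Genes for the hepatic use of serine, glycine and methionine fell broadly beside the rise of serine synthesis. Of 18 tested, 15 were lower than in livers in each tumor group, where 31.9%, 32.9% and 33% of all genes were lower, and the medians of the list were -2.54, -2.80 and -2.84. Mat1a, the liver form of methionine adenosyltransferase, fell from 5122 ± 823 to 261 ± 223, 337 ± 248 and 704 ± 268 CPM (SD, n = 5), and Agxt, which turns glyoxylate into glycine, from 697 ± 191 to 15.5 ± 15.8, 16.8 ± 22.3 and 7.64 ± 4.72 CPM. Sds, the serine dehydratase that breaks serine down, fell from 467 ± 133 to 137 ± 142, 69.2 ± 11.2 and 40.0 ± 17.5 CPM, and Srr, serine racemase, from 142 ± 11.8 to 12.3 ± 2.65, 10.9 ± 2.51 and 19.4 ± 1.15 CPM. Glyat, which couples glycine to acyl groups, fell from 267 ± 30.4 to 6.31 ± 7.67, 10.1 ± 8.60 and 12.2 ± 9.66 CPM, and Pcx, pyruvate carboxylase, from 1099 ± 155 to 485 ± 82.1, 344 ± 137 and 695 ± 150.3 CPM. Mat2a, the form of methionine adenosyltransferase found outside the adult liver and named here after its value was seen, was higher in all 3, at 1.52, 1.51 and 1.58 on the log2 scale. Sdsl, a serine dehydratase like Sds and also named after its value was seen, was higher in Aldafermin+MYC at 1.07 (adjusted p = 0.000779, edgeR) and in FGF19+MYC at 0.80 (adjusted p = 0.00746), and was at 0.27 (adjusted p = 0.342) in sgTrp53+MYC tumors. The 8 hepatocyte markers, lower in all 3 comparisons, moved with this list, and their part in it was not tested.

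The sizes of several of these falls depended on single tumors. Of these, Aldafermin+MYC replicate 4 and FGF19+MYC replicate 5 had the highest sums of hepatocyte markers in their groups, at 28747 and 37065 CPM. Aldafermin+MYC replicate 5 was inside the range of its group, at 21299 CPM. The part of these markers was not tested. Without Aldafermin+MYC replicate 4 the log2 fold change from liver in that group was -4.93 in place of -4.30 for Mat1a, -6.35 in place of -5.49 for Agxt and -6.52 in place of -5.42 for Glyat. Without Aldafermin+MYC replicate 5 that of Sds was -2.59 in place of -1.77, and without FGF19+MYC replicate 5 that of Agxt in FGF19+MYC tumors was -6.66 in place of -5.37 and that of Glyat -5.41 in place of -4.72. With library totals alone the value of Pcx was 0.21 in sgTrp53+MYC tumors, or -0.67 relative to the shift in the median of all genes, and its call in Aldafermin+MYC tumors was lost at -0.34 (adjusted p = 0.127), or -1.19 relative to the shift. Against sgTrp53+MYC, Srr was lower in the pooled tumors at -0.74 (adjusted p = 0.000464, edgeR) with no overlap, and Pcx at -0.77 (adjusted p = 0.00832). Sds was higher at 1.28 (adjusted p = 0.0265), which was lost without sgTrp53+MYC replicate 1, 2 or 3 (adjusted p = 0.0604 to 0.0644) or with the offset for GC content and length at 0.90 (adjusted p = 0.119), and Mat1a was lower at -1.25 (adjusted p = 0.0360), which was lost without Aldafermin+MYC replicate 1, FGF19+MYC replicate 2, 3 or 4, or sgTrp53+MYC replicate 1, 3 or 5 (adjusted p = 0.0518 to 0.0916).

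**Figure D4:**
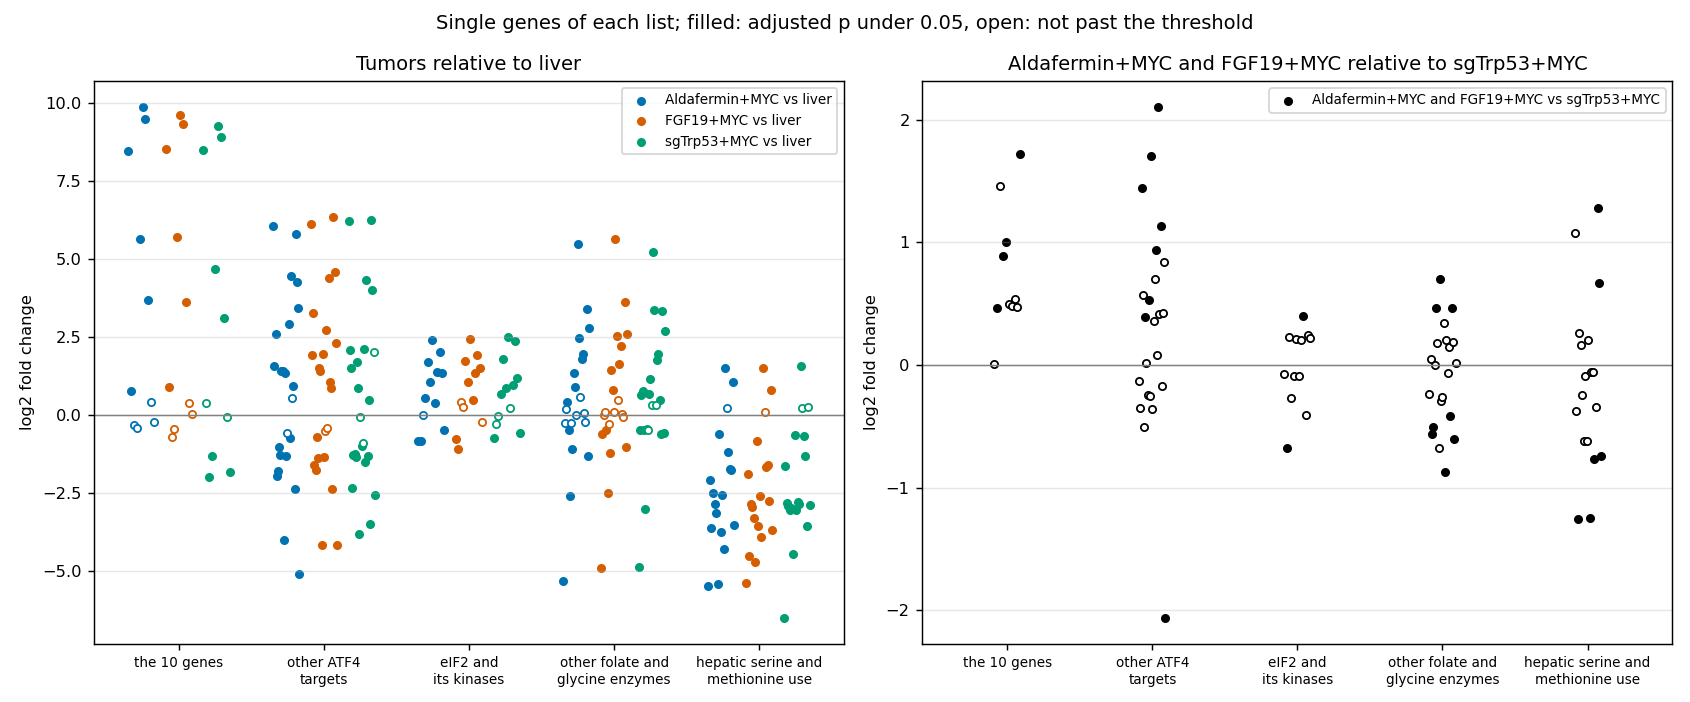
Log2 fold changes of single genes in the 10-gene set and in the 4 related lists, tumors relative to livers on the left and pooled Aldafermin+MYC and FGF19+MYC relative to sgTrp53+MYC on the right (filled points: called, open points: not called). Other ATF4 targets lie on both sides of 0 relative to livers, and 15 of 18 genes of hepatic serine and methionine use are called lower in each tumor group.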

How the data were processed

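The authors extracted total RNA, made stranded mRNA libraries (TruSeq), aligned paired reads with HISAT2 to the mouse genome (GRCm39, called Mm39) and summed them over NCBI RefSeq genes with htseq-count; the strand setting is not given in the sources used here. The deposited values are raw counts of 50559 genes in 2 tables, without normalization, and 5 summary lines of the counter were removed. Depth was 18004977 to 66354724 reads on genes per library. No library was a copy of another (chi-square over degrees of freedom at least 13.9 within groups).

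The counts were fitted with edgeR 4.0.16 under R 4.3.3 (TMM normalization, quasi-likelihood test, one model with 4 groups, Benjamini-Hochberg adjustment). The 14333 genes fitted were those that reached 1 CPM, by library totals before TMM, in 5 or more libraries. Log2 CPM of single libraries used a prior count of 2, and log2 fold changes the default of the test. Tumors came from separate mice (n = 5 per group), and p-values measure the spread between them. The test was checked on simulated counts.

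The 10 genes, the lists and the tests were chosen with earlier results of these data known. From each list, the text names the 3 genes with the smallest adjusted p against sgTrp53+MYC and the 3 with the largest mean change from liver; 1 gene so named is not reported here. Coordinates and overlaps of genes are from GENCODE M39, and sequences from RefSeq windows of GRCm38.p6. Alternatives were DESeq2 1.42.0, a likelihood ratio test, other size factors and filters, an offset for GC content and length (values for 96.6% of genes), a replicate block, compared groups only, the first table only, each hormone group alone and each library left out.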

Additional observations from a re-analysis of the deposited data

Results flagged for a closer look

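In 40 sets of 5 libraries, each of the 10 genes in each group, the library at one end was set against its neighbour. Dixon's test was used, on CPM without a log, and 6 stood apart. Chance flags about 1 in 20 sets, or 2, if values are normally distributed and sets independent. CPM of several genes in the same libraries need not be so, and the number flagged depends on the scale. Liver replicate 4 stood high for Asns, at 2.73 CPM against 0.476 CPM in the next liver, and for Psat1, at 3.75 CPM against 1.10 CPM. Chac1 stood low in FGF19+MYC replicate 4, at 2.64 CPM with the next tumor at 5.02 CPM, and high in sgTrp53+MYC replicate 5, at 5.49 CPM with the next at 1.69 CPM. Psph stood high in FGF19+MYC replicate 1, at 119.9 CPM against 72.4 CPM, and low in sgTrp53+MYC replicate 3, at 28.8 CPM against 57.7 CPM.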

How the results depend on the processing

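The number of the 10 genes called against sgTrp53+MYC was 4, between 2 and 6 under the alternatives and 2 to 5 with 1 library left out. It was 2 with no low count filter, 2 with the offset for GC content and length, and 2 without sgTrp53+MYC replicate 3; the cause was not tested. The other counts ranged over 0 (0 with a library left out) for Aldafermin+MYC against FGF19+MYC, 6 to 7 (6 to 7) for Aldafermin+MYC, 6 to 8 (6) for FGF19+MYC and 8 to 9 (8 to 9) for sgTrp53+MYC against livers. Over all genes, the calls between Aldafermin+MYC and FGF19+MYC were 0, and they were 96 with DESeq2, 59 with the likelihood ratio test, 2 with median-of-ratios size factors, 18 in the first table only, 6 without Aldafermin+MYC replicate 2 and 29 without Aldafermin+MYC replicate 4. Calls against sgTrp53+MYC were 3399, and 2258 with FGF19+MYC alone.

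Library totals alone moved the median of all genes by 0.844 to 0.882 relative to livers and turned the sign of 5 values called under either scaling: Eif2ak2 to 0.0301 in Aldafermin+MYC, and Shmt2 to 0.818, Gdf15 to 0.857, Slc25a32 to 0.309 and Pcx to 0.208 in sgTrp53+MYC. Chac1, Trib3 and Ddit3 in Aldafermin+MYC, Chac1 and Ddit3 in FGF19+MYC, Eif2ak2 in sgTrp53+MYC and Asns between tumors changed sign without a call under either. Relative to the shift the former were -0.82, -0.06, -0.02, -0.57 and -0.67. Replicate numbers belong to different mice: 6 of 30 same-number pairs correlated over 0.1 and 1 of 20 libraries was closest to its own number. With a replicate block the counts of calls stayed at 4 against sgTrp53+MYC, 0 between the hormone groups, and 6, 6 and 8 against livers, Atf4 lost its call against sgTrp53+MYC (adjusted p = 0.0572, edgeR) and Psph gained one (adjusted p = 0.0331). Low counts of Asns, Phgdh, Psat1 and Mthfd2 in livers, the last with 16 to 37 reads, limit the precision of their folds.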
